A study of Mus musculus with 10 samples.

Results

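The genes described here encode the proteins of the cytosolic ribosome and were followed in the livers of mice that ate standard chow alone or chow with TM5614. A gene was a member if its symbol was Rpl or Rps followed by a number and at most 1 of the letters a, x, y and l, or was Rplp0, Rplp1, Rplp2 or Rpsa, and if its mean over the libraries was at least 50 counts. Among the 24421 genes of the count table, 81 symbols fitted the name rule, and 74 of them passed the count minimum. These 74 genes comprise 31 small-subunit genes, 40 large-subunit genes and 3 genes of the P stalk, and they lie on 18 chromosomes. All 74 were expressed highly enough to be kept and were among the 11092 genes tested. By the mouse annotation 73 of them are protein-coding, and Rps4l is a transcribed processed pseudogene.

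Both groups were 21-week-old male C57BL/6 wild-type mice (C57BL/6 J by the study's methods) fed ad libitum, with 5 mice per group and 1 library of poly(A) liver RNA per mouse. The Chow group ate standard chow. The TM5614 group ate the same kind of food with TM5614, an orally active small-molecule inhibitor of the protease inhibitor PAI-1, mixed in to give 20 mg/kg/day for 10 days. The labels name no litter, cage, extraction batch or time of day, so any such factor cannot be told apart from the spread within a group.

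Ribosomal proteins assemble with ribosomal RNA into a small subunit, which reads the mRNA, and a large subunit, which joins the amino acids. Their mRNAs are abundant in nearly every cell and usually begin with a run of pyrimidines, the 5′ terminal oligopyrimidine (TOP) motif, through which mTOR signalling adjusts their translation. The liver is a major site of protein synthesis, and hepatocytes make most of the secreted plasma proteins.

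Total counts ran from 6398335 to 10874955 per library. Chow replicate 2 (mouse 42) stood apart from the rest, with a mean correlation of log2 library-scaled counts (CPM) with its own group of 0.927. Splines on gene length and GC content explained 51.2% of the variance of its deviations from the median of the 10 libraries. The same share was 0.928 to 13.5% in each of the remaining 9. Skeletal muscle markers stood high in TM5614 replicate 2, where 12 of them (among them Acta1, Ttn and Ckm) summed to 4383 CPM, to 78.8 CPM in TM5614 replicate 3 and to between 0.736 and 6.40 CPM in the other 8 libraries. The 12 hepatocyte markers, Alb and Ttr among them, summed to between 150070 and 170833 CPM in Chow and between 125974 and 146335 CPM in TM5614, and none was at 0. The comparisons of the groups were therefore made with all 10 libraries and without Chow replicate 2. In bulk tissue a change in the number of cells of a type and a change in the RNA of each cell cannot be told apart.

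In a minority of the member promoters the annotated start opens the pyrimidine run that gives these mRNAs their name. RefSeq start windows on GRCm38.p6, the assembly that mm10 also names, matched 54 of the 74 members and gave 64 promoters. In 12 of the 64 (18.8%) the annotated start was a C followed by at least 4 bases that were each C or T, against 2.51% of all 32851 promoters in the table. A run of at least 8 C or T anywhere in the 30 bases around the start, a feature chosen after the sequences were seen, was found in 24 member promoters (37.5%) and in 12% of all promoters. The windows printed below hold 15 bases before the start and 15 from the start on, in the direction of transcription, with the run that begins at the start in capitals. They were chosen to set 6 members with such a run beside Rps2, Rpl41 and Rpl5, whose annotated start does not open one. Members with low p-values in the comparison of groups fell on both sides. Rps2, Rpl41 and Rpl5 were among the members named for low p, and so were Rpl35 and Rpl15, which have a run.
Rps6: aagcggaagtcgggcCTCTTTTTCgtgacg
Rps15a: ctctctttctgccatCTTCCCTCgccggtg
Rpl15: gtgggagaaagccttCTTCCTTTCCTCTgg
Rpl35: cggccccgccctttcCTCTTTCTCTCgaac
Rpl38: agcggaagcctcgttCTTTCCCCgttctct
Rplp2: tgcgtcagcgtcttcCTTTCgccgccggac
Rps2: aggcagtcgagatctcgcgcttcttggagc
Rpl41: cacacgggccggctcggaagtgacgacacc
Rpl5: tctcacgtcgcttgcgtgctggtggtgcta

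These windows lie at chr4:86857353-86857382 (minus strand) for Rps6, chr7:118116133-118116162 (minus strand) for Rps15a, chr14:18270972-18271001 (minus strand) for Rpl15, chr2:39005117-39005146 (minus strand) for Rpl35, chr11:114668565-114668594 (plus strand) for Rpl38 and chr7:141447636-141447665 (plus strand) for Rplp2. Those of the other 3 genes are chr17:24720048-24720077 (plus strand) for Rps2, chr10:128549154-128549183 (minus strand) for Rpl41 and chr5:107900513-107900542 (plus strand) for Rpl5. The run was longest at Rpl15, with 13 bases, followed by Rpl35 with 11, and Rplp2 had the shortest of those shown, with 5. An annotated start a few bases away from the one used in liver would hide the run, so its absence at Rps2, Rpl41 and Rpl5 says only that these letters are not at that position. In the 300 bases from 250 before to 50 after the start, read on both strands, the ETS-type motif CCGGAAG was present in 23 member promoters (35.9%) against 8.86% of all promoters. The palindromic motif that ZBTB33 (Kaiso) can bind was present in 6 (9.38%) against 0.466%, among them Rps6, Rps19 and Rpl12, and the extended YY1 motif in 4 (6.25%) against 0.852%. These promoters belong to 5 genes for the Kaiso motif and to only 2 genes, Rpl35a and Rpl13a, for the YY1 motif. The annotated starts of Rpl35a lie close together, so their windows overlap and the same site can be counted more than once. TATAAA occurred in 6 (9.38%) against 13.6% and the E-box CACGTG in 6 (9.38%) against 7.15%. These are letter matches and do not show that a factor binds.

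Levels per length were read from the deposited FPKM values (fragments per kilobase of gene length, scaled by library). Rplp1, an acidic P stalk protein that helps recruit elongation factors, was highest in Chow without replicate 2, at 492 ± 101 FPKM (SD, n = 4). Rps15, a small-subunit protein near the decoding site, followed at 442 ± 66.0 FPKM (SD, n = 4), within the spread of Rplp1. In the TM5614 group this order was turned, with 414 ± 76.5 FPKM for Rps15 and 381 ± 63.7 FPKM for Rplp1 (SD, n = 5), again within the spread. Rpl8, which lies close to the peptidyl transferase centre, stood at 327 ± 32.9 FPKM (SD, n = 4) in Chow without replicate 2. At the low end were Rpl15 at 26.8 ± 1.72 FPKM, Rps4l at 14.2 ± 2.20 FPKM and Rps15a at 13.6 ± 1.38 FPKM (SD, n = 4). The FPKM of Rps15a rests on a gene length of 5191 nt in the authors' table, while the median of its annotated transcripts is 637 nt, so its place at the bottom depends on that length.

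**Figure D1:**
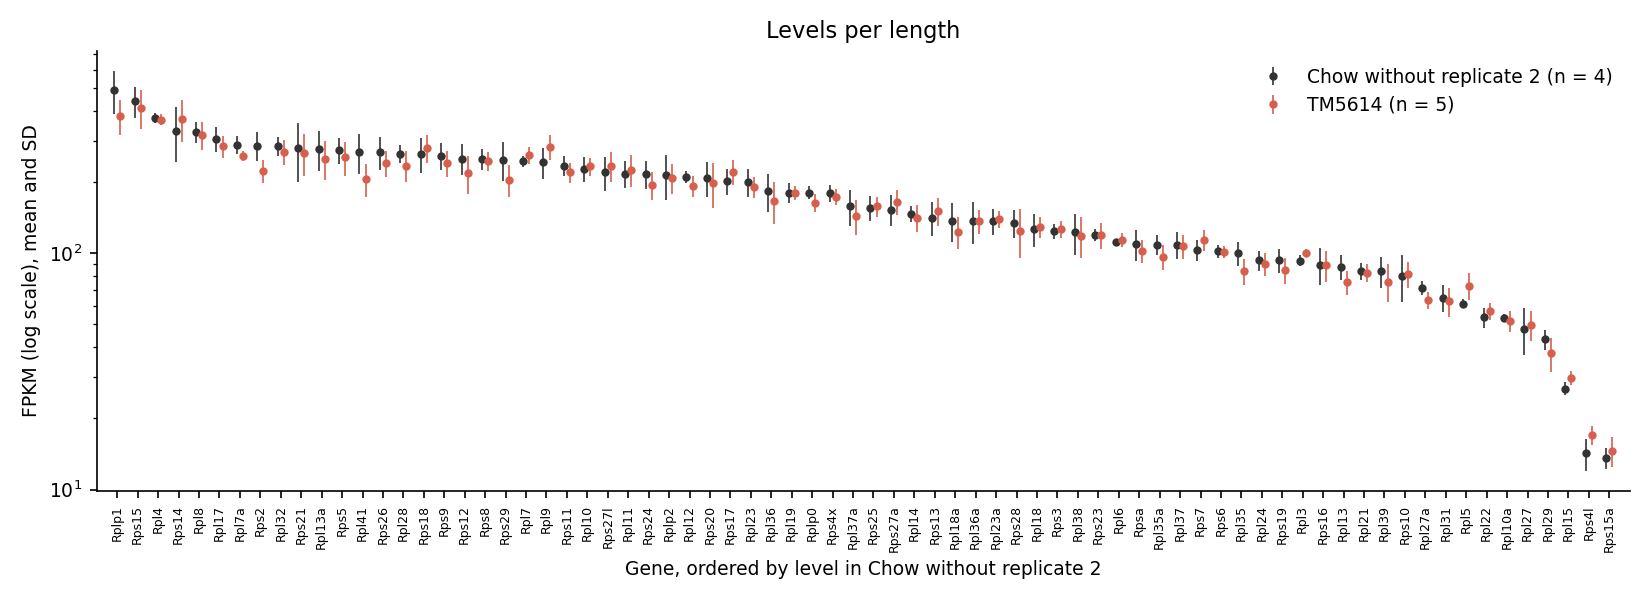
Mean FPKM on a log axis for each of the 74 genes in Chow without replicate 2 (black, n = 4) and in TM5614 (red, n = 5), with bars of 1 SD, ordered by the Chow level. The bars of the groups overlap for most genes, and Rpl15, Rps4l and Rps15a lie below the rest.

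The ribosomal protein genes together took a small share of the liver counts, and that share did not separate the groups. It was 0.938, 1.87, 0.985, 1.13 and 0.909% of all counts in Chow replicates 1 to 5, and 0.919, 1.16, 0.858, 1.02 and 0.956% in TM5614 replicates 1 to 5. Chow replicate 2 alone was high, and the other 9 libraries lay in 1 overlapping range. The mean share was 1.17 ± 0.401% (SD, n = 5) in Chow, 0.991 ± 0.100% (SD, n = 4) in Chow without replicate 2 and 0.983 ± 0.116% (SD, n = 5) in TM5614. The difference of TM5614 minus Chow was thus -0.184 percentage points with all libraries and -0.0085 percentage points without Chow replicate 2. For Chow replicate 2 the 95% Wilson interval of the share was 1.86 to 1.88%, which covers counting error only. Small-subunit genes took 0.402 ± 0.050% of the counts in Chow without replicate 2 (SD, n = 4) and 0.400 ± 0.0548% in TM5614 (SD, n = 5). Large-subunit genes took 0.532 ± 0.0430% and 0.532 ± 0.0549% in the same groups, and P stalk genes 0.0571 ± 0.0081% and 0.0508 ± 0.0066%. None of these differences exceeded the spread within the groups. TM5614 replicate 2, the library with muscle markers, had the highest share in its group, and the part of those markers in it was not tested.

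**Figure D2:**
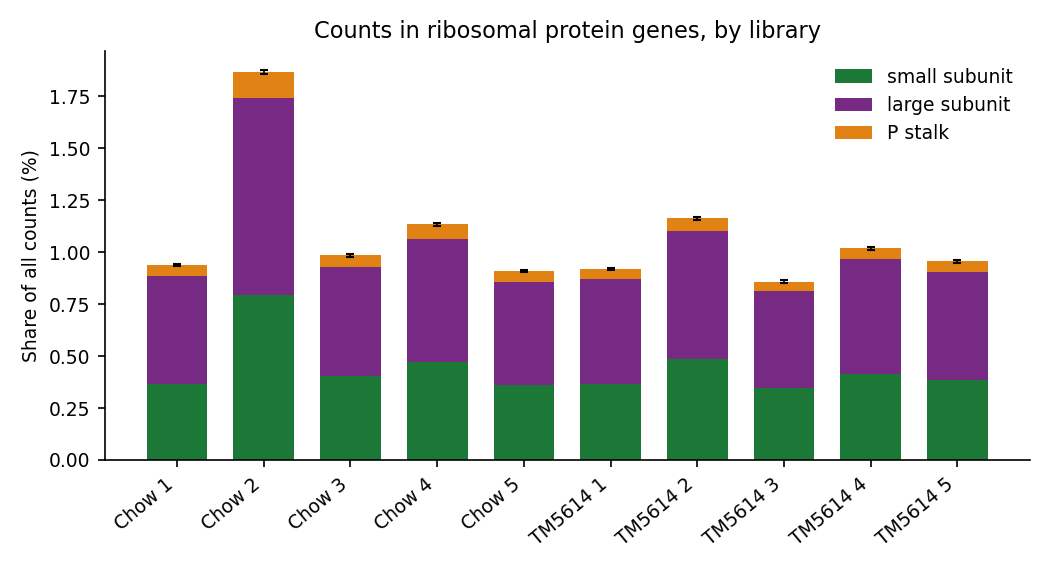
Share of all counts (%) in small-subunit, large-subunit and P stalk genes for each of the 10 libraries, stacked from 0, with the 95% Wilson interval of the total (counting error only). Chow replicate 2 reaches 1.87%, and the other libraries lie between 0.858 and 1.16%.

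In Chow replicate 2 the ribosomal protein mRNAs were raised together. Its CPM was the highest of the 10 libraries for all 74 members, while it was the highest for 32.4% of all genes tested. Against the mean of the other Chow libraries its CPM was 1.26-fold for Rpl4 and 1.27-fold for Rpl15, the smallest excesses, and 2.75-fold for Rplp2 and 2.86-fold for Rpl38, the largest. The median excess was 1.04 on the log2 scale, with a range from 0.33 to 1.53. Short genes in general were raised in this library: the members had a median length of 726 nt, as implied by the FPKM values, against 2986 nt over the 11043 tested genes with a length and GC content. Among genes under 500 nt the median excess was 1.18 on the log2 scale for 14 members and 0.99 for 63 other genes. From 500 to 750 nt it was 1.08 for 27 members and 0.92 for 214 other genes, and from 1000 to 1500 nt it was 0.85 for 11 members and 0.58 for 1023 other genes. In the longer classes the members did not follow the other genes. From 1500 to 2500 nt the median excess was 0.93 for 5 members and 0.25 for 2585 other genes, from 2500 to 4000 nt it was 0.69 for the only member and -0.07 for 3153 other genes, and above 4000 nt it was 0.99 for the only member, Rps15a, and -0.47 for 3564 other genes. The median annotated transcript of these 7 members, Rps15a, Rpl22, Rpl5, Rps3, Rpsa, Rpl21 and Rpl15, was between 578.5 and 952 nt, shorter than the length implied by the FPKM values. The length classes were set after the data were seen. Once the GC and length trend was taken out of every library, the median excess of the members fell to 0.20, with 56 of the 74 above 0. The Kupffer cell markers (12 genes, none at 0) summed to 295 CPM in Chow replicate 2 and to between 92.7 and 272 CPM in the other Chow libraries. The GC and length trend, these markers and the ribosomal protein genes all stood high in Chow replicate 2, and their parts cannot be told apart within it. Chow replicate 5 had the 272 CPM and the lowest ribosomal protein share of its group, 0.909%. TM5614 replicate 3 had the highest marker sum of its group, 206 CPM, and the lowest share of the 10 libraries, 0.858%. From Chow replicate 1 to Chow replicate 4 the sum rose from 92.7 to 161 CPM and the share from 0.938 to 1.13%. The relation of sum and share was not tested.

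**Figure D3:**
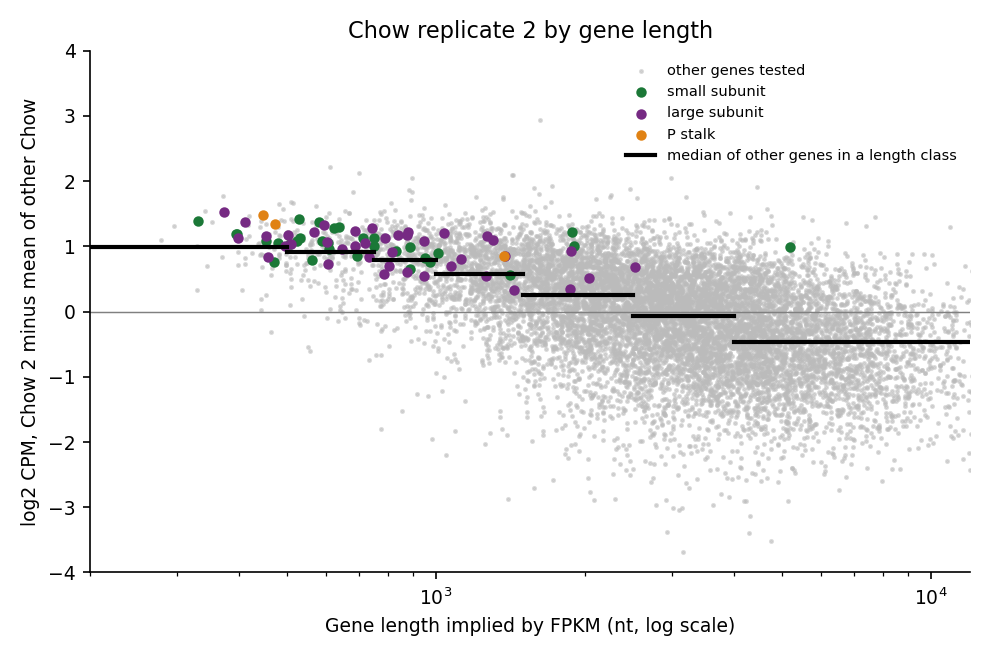
Excess of Chow replicate 2 over the mean of the other Chow libraries (log2 CPM) against the gene length implied by the FPKM values (nt, log axis) for 11043 genes, 108 of which fall outside the axes, with the members in colour and the median of the other genes in each length class as black lines. All 74 members lie above 0, and the black lines fall from 0.99 in the shortest class to -0.47 in the longest.

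Outside Chow replicate 2 the members still rose and fell together from mouse to mouse, within both groups. Of the other 9 libraries Chow replicate 4 was highest for 38 members and TM5614 replicate 2 for 22, and TM5614 replicate 3 was lowest for 45. The median correlation between pairs of members in log2 CPM was 0.92 over 10 libraries and 0.70 over the other 9, and it was 0.78 over those 9 after the mean of each group was taken out. These correlations describe libraries that share depth and RNA quality and are not independent across genes. With the GC and length trend taken out, the members' median log2 deviation went from 0.209 to 0.037 in Chow replicate 4. It went from 0.185 to -0.0043 in TM5614 replicate 2 and from -0.249 to -0.063 in TM5614 replicate 3. In TM5614 replicate 4 it rose, from 0.049 to 0.114. Correlations after this correction, or among other short genes, were not tested. The processed pseudogene Rps4l went against the others, with a correlation of -0.52 with their mean over the 9 libraries. Rpl3, which lines the peptidyl transferase centre, had a correlation of 0.025 with them, and Rpl7a of 0.35. With group means taken out the correlations were -0.55 for Rps4l, 0.20 for Rpl3 and 0.34 for Rpl7a.

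**Figure D4:**
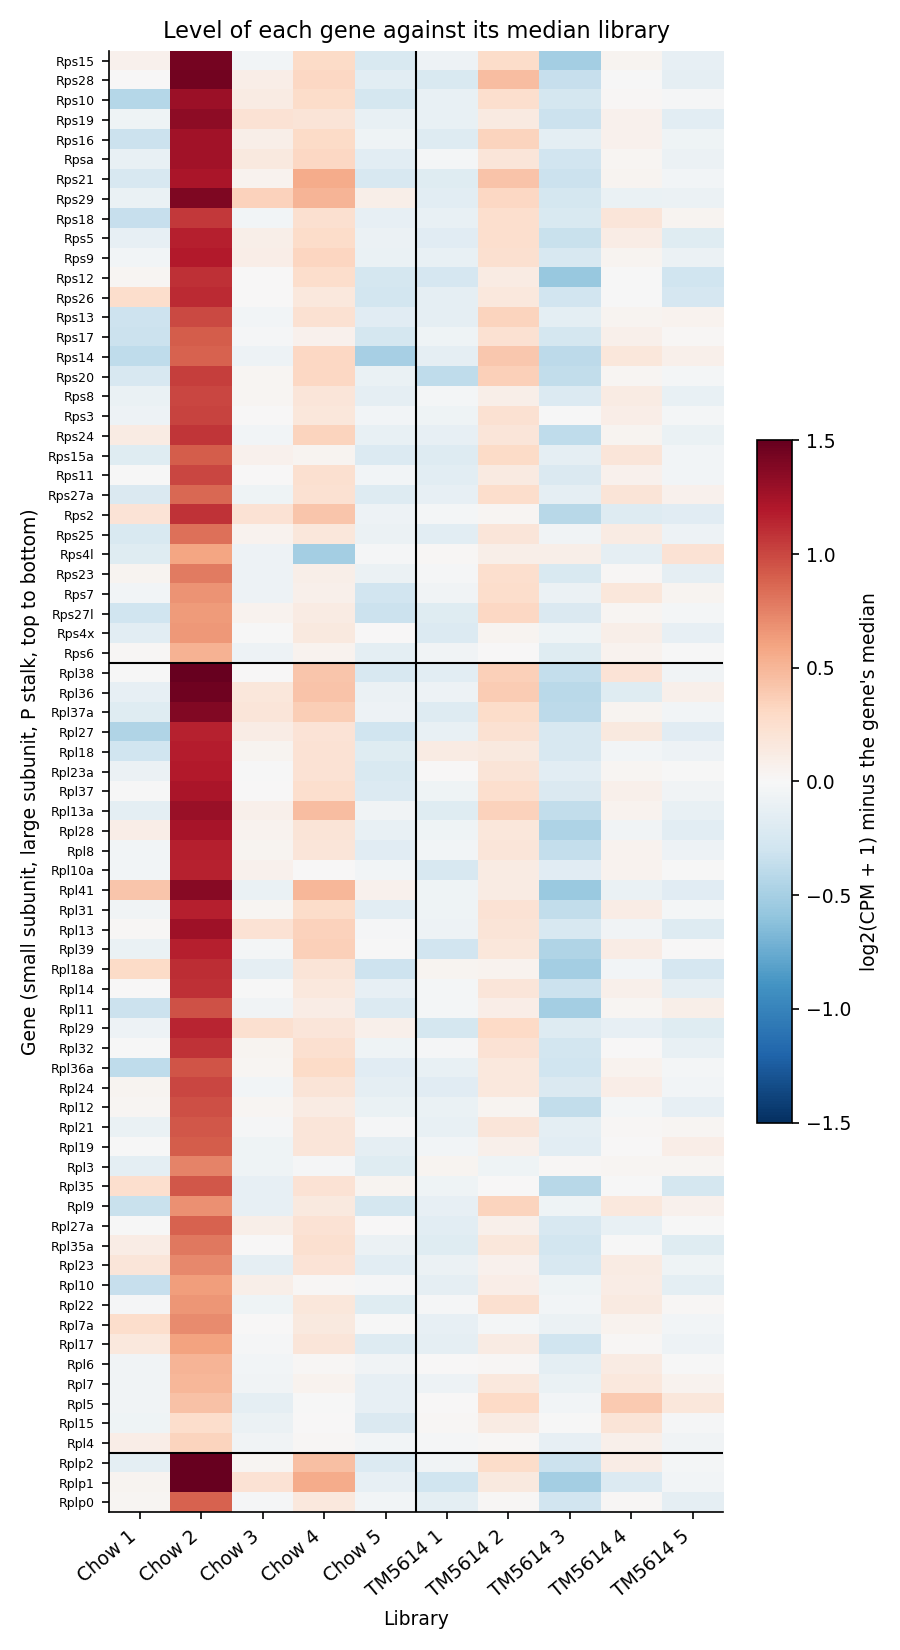
Level of each of the 74 genes in each library as log2(CPM + 1) minus the median over that gene's 10 libraries, with colours ending at 1.5 in each direction and a vertical line between Chow and TM5614. The column of Chow replicate 2 is above the median for all 74 genes, TM5614 replicate 3 is below it for most, and Rps4l runs against the other rows in Chow replicate 4.

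The comparison of the groups asks whether inhibition of PAI-1 moved the ribosomal protein mRNAs of the liver, and no member passed the threshold. With all 10 libraries edgeR called 0 of the 74 at an adjusted p under 0.05, against 4.5% of all genes tested, and without Chow replicate 2 it again called 0, against 9.24%. At an unadjusted p under 0.05 there were 6 members lower and 0 higher with 10 libraries (11.7% and 8.69% of all genes). The corresponding counts without Chow replicate 2 were 4 lower and 1 higher (13.1% and 10.5%). DESeq2 called 0 members with 10 libraries (8.11% of all genes) and 1, Rps2, without Chow replicate 2 (11.4%). limma-voom with sample quality weights, which gives a deviating library less weight, also called Rps2 alone (12.5%). There was no member whose TM5614 libraries all lay below or all lay above the Chow libraries, with Chow replicate 2 (4.87% and 4.07% of all genes) or without it (6.63% and 5.43%).

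The size of the members' median difference, and the number of lower estimates, depended on Chow replicate 2. TM5614 estimates were lower than Chow for 70 of 74 members with all libraries (48.5% of all genes) and for 50 of 74 without Chow replicate 2 (49.1%). The median log2 fold change of TM5614 over Chow was -0.34 with 10 libraries, where the median of all genes was 0.013, and -0.048 without Chow replicate 2, where the median of all genes was 0.0045. By subunit the medians were -0.34 for the small, -0.33 for the large and -0.48 for the P stalk genes with all libraries, and -0.033, -0.047 and -0.14 without Chow replicate 2. The median standard error of a member fell from 0.22 to 0.11 on the log2 scale when Chow replicate 2 was left out. Without it the 95% interval of all 74 members lay within a 2-fold change in either direction, against 59 of 74 with it. A change of that size was therefore outside the interval of every member in the fit of 9 libraries, while smaller changes remained within it. Leaving out TM5614 replicate 2 alone gave a median of -0.40. Leaving out both libraries gave a median of -0.10 and 57 of 74 lower estimates, and edgeR then called 2 members lower (6.32% of all genes), Rps2 and Rpl29.

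**Figure D5:**
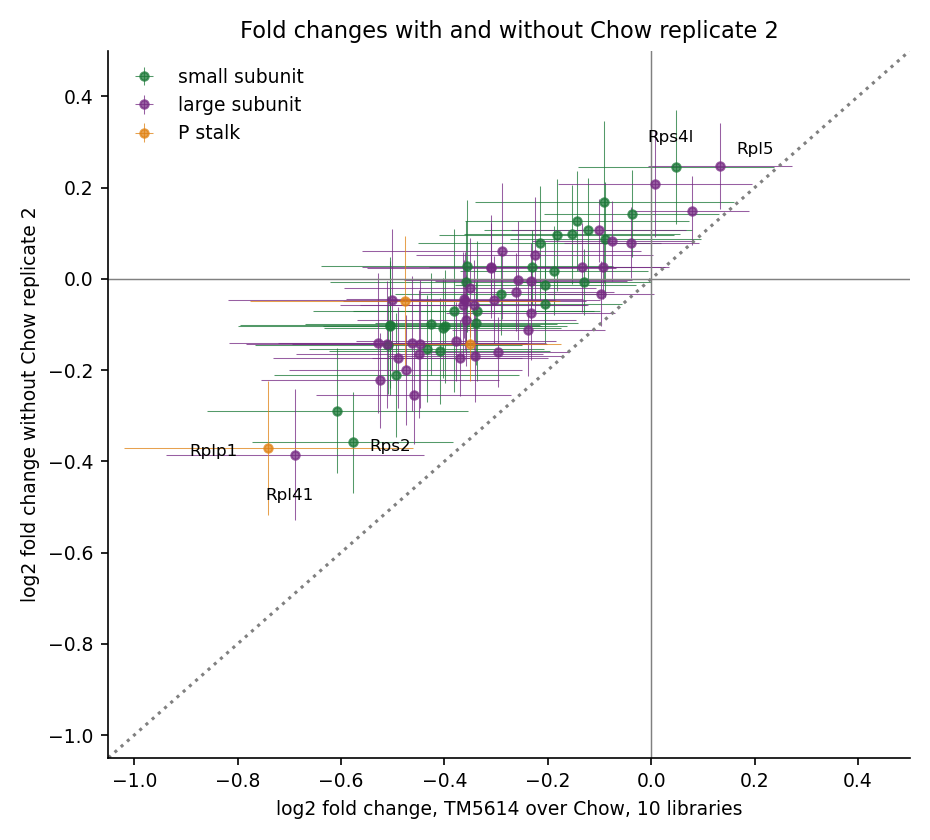
Log2 fold change of TM5614 over Chow for each of the 74 genes with 10 libraries (horizontal) and without Chow replicate 2 (vertical), with bars of 1 SE and a dotted line of equal values. All points lie above the dotted line, and the median moves from -0.34 to -0.048.

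Among the small-subunit genes Rps2 came nearest to the threshold. Rps2, a protein at the mRNA entry side of the subunit, is encoded at chr17:24718116-24721929, plus strand. Its CPM was 291, 535, 292, 336 and 238 in Chow replicates 1 to 5 and 245, 257, 188, 220.1 and 223 in TM5614 replicates 1 to 5. Chow replicates 1 to 4 lay above every TM5614 library, and Chow replicate 5 fell among them. The log2 fold change was -0.58 ± 0.19 (SE, adjusted p = 0.123) with all libraries and -0.36 ± 0.11 (SE, adjusted p = 0.0654) without Chow replicate 2, with a 95% interval of -0.60 to -0.12. Other fits without Chow replicate 2 gave an adjusted p of 0.0275 with DESeq2, 0.0422 with edgeR and a GC and length offset (5.81% of all genes called lower), and 0.0591 with edgeR and an offset on GC and annotated transcript length, which missed the threshold. With sample quality weights on all 10 libraries the adjusted p was 0.0336, and without both doubtful libraries it was 0.0389. Over 25 alternatives Rps2 kept a negative estimate, from -0.68 to -0.25, and the adjusted p ran from 0.0275 to 0.29. The annotation holds 11 gene models named as pseudogenes of Rps2, whose reads the counting may have divided.

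Rps29, a small zinc-binding protein, had CPM values of 78.4, 223, 106, 120.1 and 89.1 in Chow replicates 1 to 5 and 75.1, 104, 69.4, 78.0 and 78.7 in TM5614 replicates 1 to 5. Chow replicates 3 and 4 were above the TM5614 libraries and Chow replicates 1 and 5 were among them. Its log2 fold change was -0.61 ± 0.25 (SE, adjusted p = 0.203), and -0.29 ± 0.14 (SE, adjusted p = 0.225) without Chow replicate 2. Rps6, the substrate of the S6 kinases, varied little outside Chow replicate 2, with 149.7, 212, 140.0, 153 and 133 in Chow replicates 1 to 5 and 142, 148, 130.3, 153 and 147 in TM5614 replicates 1 to 5 CPM. The groups overlapped throughout, and the log2 fold change was -0.13 ± 0.13 (SE, adjusted p = 0.590) with all libraries and, without Chow replicate 2, -0.00737 ± 0.073 (SE, adjusted p = 0.969) with a 95% interval of -0.17 to 0.15.

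Rpsa, also known as the laminin receptor, measured 183, 474, 218, 244 and 177 in Chow replicates 1 to 5 and 193, 223, 162, 202 and 185 in TM5614 replicates 1 to 5 CPM. Chow replicate 2 was 2.30 times the mean of the other Chow libraries, and the log2 fold change moved from -0.43 ± 0.24 to -0.10 ± 0.11 (SE) without it. Rps15 behaved alike, at -0.51 ± 0.29 and -0.10 ± 0.14. Rps27a, which is made as a fusion with ubiquitin, had estimates of -0.12 ± 0.20 with and 0.11 ± 0.11 without that library. Rps15a gave -0.15 ± 0.21 and 0.10 ± 0.11 on the same scale. None of these 4 genes passed the threshold in either fit, and Rps27a and Rps15a changed sign.

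Of the large-subunit genes, Rpl41 had the lowest estimate. Rpl41 encodes a very short basic peptide and lies at chr10:128548114-128549305, minus strand. Its CPM was 139, 269, 96.4, 147 and 108 in Chow replicates 1 to 5 and 98.9, 113, 70.3, 96.7 and 92.2 in TM5614 replicates 1 to 5. Chow replicates 1, 2 and 4 were above all TM5614 libraries, and Chow replicates 3 and 5 overlapped with them. The log2 fold change was -0.69 ± 0.25 (SE, adjusted p = 0.150) with all libraries and -0.39 ± 0.14 (SE, adjusted p = 0.125) without Chow replicate 2. Rpl35, near the exit of the peptide tunnel, measured 50.8, 81.9, 38.9, 49.6 and 43.8 in Chow replicates 1 to 5 and 40.6, 42.7, 31.8, 42.5 and 35.3 in TM5614 replicates 1 to 5 CPM, with a log2 fold change of -0.46 ± 0.19 (SE, adjusted p = 0.200) and, without Chow replicate 2, -0.25 ± 0.11 (SE, adjusted p = 0.181). Of the Chow libraries only replicate 3 reached into the TM5614 range for Rpl35. Rpl13 had a log2 fold change of -0.52 ± 0.23 (SE, adjusted p = 0.226) with all libraries and -0.22 ± 0.10 (SE, adjusted p = 0.219) without Chow replicate 2. Rpl29, called lower only in the fit without both doubtful libraries and named here after its values were seen, had 27.2, 64.4, 34.0, 32.6 and 30.4 in Chow replicates 1 to 5 and 23.8, 35.7, 25, 26.3 and 25.1 in TM5614 replicates 1 to 5 CPM. TM5614 replicate 2 was the highest of its group and exceeded all Chow libraries but Chow replicate 2.

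Rpl5 and Rpl11 bind 5S ribosomal RNA together before they enter the large subunit, and both can bind the p53 regulator Mdm2. Rpl5 (chr5:107900502-107909005, plus strand) measured 128, 180.1, 120.1, 132 and 122 in Chow replicates 1 to 5 and 133, 163, 128, 175 and 149 in TM5614 replicates 1 to 5 CPM. TM5614 replicates 1, 2, 4 and 5 were above all Chow libraries but Chow replicate 2, and TM5614 replicate 3 was among them. This was the member with the highest estimate in both fits. Its log2 fold change was 0.13 ± 0.14 (SE, adjusted p = 0.605) with all libraries and 0.25 ± 0.094 (SE, adjusted p = 0.132) without Chow replicate 2, with a 95% interval of 0.043 to 0.45. The estimate turned to -0.048 with the GC and length offset on all 10 libraries (adjusted p = 0.91). Rpl11 measured 112, 273, 135, 152 and 122 in Chow replicates 1 to 5 and 138, 150.4, 98.6, 143 and 149.5 in TM5614 replicates 1 to 5 CPM, where TM5614 replicate 3 was the lowest library. Its estimates were -0.23 ± 0.23 with and 0.052 ± 0.13 (SE) without Chow replicate 2, so the pair did not show a shared direction beyond error.

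Rpl3 varied little within the TM5614 group, with CPM values of 125, 231, 132, 136 and 121 in Chow replicates 1 to 5 and 142, 132, 139, 140.3 and 140.0 in TM5614 replicates 1 to 5. Rpl3 had an estimate of -0.10 ± 0.17 (SE, adjusted p = 0.752) in the fit of 10 libraries and of 0.11 ± 0.068 (SE, adjusted p = 0.387) in the fit of 9. Rpl15 and Rpl9 also had estimates above 0 in both fits, at 0.078 ± 0.11 and 0.15 ± 0.076 for Rpl15 and 0.00770 ± 0.19 and 0.21 ± 0.12 (SE) for Rpl9, whose estimate fell below 0 with upper-quartile factors. Rpl8 moved from -0.36 ± 0.24 to -0.048 ± 0.11 when Chow replicate 2 was left out. Rpl38, known for its part in the translation of Hox mRNAs, moved from -0.50 ± 0.32 to -0.047 ± 0.16. For Rpl10a the change was from -0.36 ± 0.23 to -0.044 ± 0.086. Chow replicate 2 exceeded the other Chow libraries for these 3 genes 2.25-fold, 2.86-fold and 2.25-fold, and their estimates without it lay within 1 SE of 0.

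The P stalk of the large subunit is built from Rplp0, which anchors it, and the acidic pair Rplp1 and Rplp2. Rplp1 had the lowest estimate of all 74 members with 10 libraries, at CPM values of 209.6, 581, 237, 299 and 186 in Chow replicates 1 to 5 and 165, 225, 143, 176 and 197 in TM5614 replicates 1 to 5. TM5614 replicates 1, 3 and 4 were below all Chow libraries, and TM5614 replicates 2 and 5 were among them. The log2 fold change of Rplp1 (chr9:61913284-61914542, minus strand) was -0.74 ± 0.28 (SE, adjusted p = 0.165) and, without Chow replicate 2, -0.37 ± 0.15 (SE, adjusted p = 0.150) with a 95% interval of -0.69 to -0.051. Rplp2 measured 83.1, 264, 94.6, 126 and 79.8 in Chow replicates 1 to 5 and 89.3, 113, 74.0, 99.6 and 90.3 in TM5614 replicates 1 to 5 CPM and Rplp0 248, 449, 240.0, 272 and 236 in Chow replicates 1 to 5 and 220.3, 246, 199.5, 246 and 221 in TM5614 replicates 1 to 5 CPM. With all libraries their estimates were -0.48 ± 0.30 (SE, adjusted p = 0.388) and -0.35 ± 0.18 (SE, adjusted p = 0.286), and without Chow replicate 2 they were -0.048 ± 0.14 (SE, adjusted p = 0.881) and -0.14 ± 0.081 (SE, adjusted p = 0.322). Without it the stalk partners Rplp1 and Rplp2 thus had estimates of -0.37 and -0.048, with 95% intervals that overlap (-0.36 to 0.26 for Rplp2), and the difference between them was not tested.

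Paralogs and copies limit what some rows can show. Rps27l, a paralog of Rps27 known as a p53 target, measured 90.0, 173, 115, 121 and 87.9 in Chow replicates 1 to 5 and 97.4, 138, 95.1, 112 and 109 in TM5614 replicates 1 to 5 CPM and had estimates of -0.089 ± 0.18 with and 0.086 ± 0.13 (SE) without Chow replicate 2. Rps27 itself was not a member, with between 2 and 14 counts per library. Rpl26, Rpl30 and Rpl34, which encode core proteins of the large subunit, were also nearly empty, at 0 counts throughout for Rpl26, at most 2 for Rpl30 and at most 10 for Rpl34. These core proteins are made in every cell, so their counts are given as listed and no level of the mRNA is read from them. Of the tissue-restricted paralogs Rpl10l had 0 counts, Rpl39l at most 1, and the muscle paralog Rpl3l had 59 counts in TM5614 replicate 2 and at most 2 elsewhere. Gene models named as pseudogenes exist for 51 of the 74 members, 275 in all, of which 5 have a row in the count table. Rpl22, an RNA-binding protein with the paralog Rpl22l1, had estimates of -0.076 ± 0.15 and 0.083 ± 0.087, and Rpl22l1 had -0.35 ± 0.22 and -0.14 ± 0.16. Neither passed the threshold. Rps4l (chr6:148354656-148355598, plus strand), the processed pseudogene, measured 13.6, 23.9, 14.7, 10.6 and 15.3 in Chow replicates 1 to 5 and 15.8, 16.6, 16.5, 14.1 and 18.2 in TM5614 replicates 1 to 5 CPM, and its log2 fold change was 0.048 ± 0.19 (SE, adjusted p = 0.906) with all libraries and 0.24 ± 0.12 (SE, adjusted p = 0.263) without Chow replicate 2.

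Genes that work with the ribosome were read from the same fit, as lists of ribosomal proteins outside the name rule, elongation, initiation, other TOP mRNAs, mitochondrial ribosomal proteins, ribosome biogenesis, RNA polymerase I and translation control. Of the 248 tested genes of these lists 4 passed the threshold with all libraries (4.5% of all genes) and 13 without Chow replicate 2 (9.24%). Eef2k, the kinase that inhibits elongation factor 2, fell with TM5614. Its CPM was 10.3, 13.7, 12.2, 13.3 and 14.2 in Chow replicates 1 to 5 and 7.90, 8.69, 6.88, 7.54 and 7.90 in TM5614 replicates 1 to 5, so that the groups did not overlap. The log2 fold change was -0.71 ± 0.13 (SE, adjusted p = 0.00964) with all libraries and -0.69 ± 0.13 (SE, adjusted p = 0.00508) without Chow replicate 2, and it passed the threshold under the 25 alternatives run for it, with an adjusted p of at most 0.0393. It was the only called gene of 8 tested elongation genes.

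With both directions counted, ribosome biogenesis genes were called about as often as genes in general, or less, and most of their estimates were above 0. Of 67 tested, 2 rose and 0 fell with all libraries (4.5% of all genes were called in either direction), and 5 rose and 1 fell without Chow replicate 2 (9.24%). Over all genes tested, 192 of 11092 and 405 of 11162 were called higher in these fits. Estimates were lower for 20 of the 67 with all libraries (48.5% of all genes) and for 16 without Chow replicate 2 (49.1%). Tsr1, which matures the small subunit, measured 13.9, 11.2, 15.7, 13.2 and 15.6 in Chow replicates 1 to 5 and 18.5, 17.5, 25.7, 25.7 and 21.6 in TM5614 replicates 1 to 5 CPM, and every TM5614 library was above every Chow library. Its log2 fold change was 0.65 ± 0.15 (SE, adjusted p = 0.0304), and 0.57 ± 0.14 (SE, adjusted p = 0.0214) without Chow replicate 2. With 1 library left out the adjusted p of Tsr1 ran from 0.0214 to 0.104, and it missed the threshold without Chow replicate 1, 3 or 4 or without TM5614 replicate 3, 4 or 5. Ftsj3, a methyltransferase of ribosomal RNA, had log2 fold changes of 0.41 ± 0.10 (SE, adjusted p = 0.0317) and, without Chow replicate 2, 0.39 ± 0.081 (SE, adjusted p = 0.0112). Its adjusted p ran from 0.0112 to 0.107 with 1 library left out, and it kept the call without Chow replicate 2 or TM5614 replicate 2 and lost it without any of the other 8. Nop58, a core protein of box C/D particles, and Ltv1, a small-subunit assembly factor, passed in the fit without that library and not in the fit with it, at 0.44 ± 0.10 (SE, adjusted p = 0.0157) and 0.34 ± 0.095 (SE, adjusted p = 0.0431). Riok2, a kinase of late small-subunit assembly, fell by that fit, at -0.45 ± 0.091 (SE, adjusted p = 0.00983). With all 10 libraries Nop58, Ltv1 and Riok2 had 0.36 ± 0.12 (SE, adjusted p = 0.132), 0.43 ± 0.13 (SE, adjusted p = 0.0884) and -0.30 ± 0.17 (SE, adjusted p = 0.352). The median log2 fold change of the list was 0.10 with all libraries and 0.11 without Chow replicate 2.

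Initiation factors gave 0 calls with all libraries among 36 tested (4.5% of all genes), and 3 rose without Chow replicate 2 (9.24%). These were Eif3e, a subunit of eIF3, at 0.30 ± 0.072 (SE, adjusted p = 0.0235), Eif4g2 at 0.31 ± 0.081 (SE, adjusted p = 0.0335) and Eif2b4, a subunit of the exchange factor eIF2B, at 0.36 ± 0.090 (SE, adjusted p = 0.0275). With all 10 libraries these genes had 0.42 ± 0.14 (SE, adjusted p = 0.120), 0.49 ± 0.20 (SE, adjusted p = 0.205) and 0.18 ± 0.17 (SE, adjusted p = 0.563). Eif4g2 measured 563, 244, 596, 536 and 595 in Chow replicates 1 to 5 and 640.2, 692, 783, 727 and 717 in TM5614 replicates 1 to 5 CPM, so Chow replicate 2 was low for this gene while it was high for the ribosomal protein genes. Of 22 tested genes with other TOP mRNAs, Eif3e was the only gene called, without Chow replicate 2, and their median log2 fold change was -0.073 with and 0.039 without Chow replicate 2. Among 25 tested genes of translation control, 1 fell with all libraries (4.5% of all genes were called) and 3 without Chow replicate 2 (9.24%). Rps6kb2, a gene of the S6 kinases, had a log2 fold change of -0.46 ± 0.12 (SE, adjusted p = 0.0481) with all libraries and -0.40 ± 0.10 (SE, adjusted p = 0.0251) without Chow replicate 2, and it missed the threshold when any of the other 9 libraries was left out (adjusted p from 0.0504 to 0.138). Eif4ebp2, a repressor of cap-dependent initiation, measured 112, 50.8, 115, 106 and 113 in Chow replicates 1 to 5 and 91.0, 78.1, 79.0, 80.4 and 90.7 in TM5614 replicates 1 to 5 CPM. Its log2 fold change was -0.24 ± 0.19 (SE, adjusted p = 0.490) with Chow replicate 2, which lay below all TM5614 libraries, and -0.42 ± 0.075 (SE, adjusted p = 0.00502) without it. Tsc2, which restrains mTOR complex 1, had -0.23 ± 0.087 (SE, adjusted p = 0.167) with all libraries and -0.26 ± 0.066 (SE, adjusted p = 0.0277) without that library. Of 7 tested ribosomal proteins outside the name rule, among them Fau and Gnb2l1 (Rack1), 0 passed in either fit (4.5% and 9.24% of all genes).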

How the data were processed

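Poly(A) RNA of 10 livers was sequenced as 75-base single-end reads by the study's methods, which name STAR, HOMER, DESeq2 and mm10. Tool versions, gene annotation and strand setting are not given in the sources used here. The authors deposited raw read counts for each gene symbol and, in a second table, FPKM values in which the counts were divided by gene length and a library factor. Their regularised log2 table and their table of DESeq2 fold changes and p-values were not used. Columns were matched to samples by mouse number, and 0 columns were left unmapped. No pair of libraries within a group agreed within sampling noise (lowest chi-square per degree of freedom 7.50).

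Genes passing filterByExpr were scaled by TMM and tested in edgeR 4.0.16 (quasi-likelihood, two-sided, group as the only term) under R 4.3.3, with Benjamini-Hochberg adjustment over all genes tested and a threshold of 0.05. CPM are scaled by TMM over the 10 libraries, and log2 CPM used a prior count of 2. P-values set the difference between the groups against the spread between mice of each group. Counting precision follows from the total of 6398335 to 10874955 counts per library, shares have 95% Wilson intervals, and both cover counting error only. Gene length was taken as the length implied by the deposited FPKM and GC content from GENCODE M21 transcripts. The correction for both used splines of 5 degrees of freedom. It was first run with annotated transcript lengths, and the change to the implied length was made after that fit had been seen, so both are reported.

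The members, the gene lists and the tests were chosen with earlier results of these data known. Named members are a set list of 15 symbols, of which 14 are members, the 5 of lowest p in each direction in the fits with and without Chow replicate 2, and the 3 highest and 3 lowest in FPKM. Up to 5 called genes per function list are named. Alternatives were DESeq2 1.42.0, limma-voom 3.58.1 with sample quality weights, other scaling factors, other filters, a threshold of 0.01, the replicate number as a block, the GC and length offset, and each library left out in turn. Leaving out Chow replicate 2 and TM5614 replicate 2 together was chosen after seeing the data. The edgeR, DESeq2, limma-voom, GC and length offset and replicate block fits were first run on simulated data. Those data held no GC or length trend and no deviating library. The other alternatives were not tested on simulated data. The marker lists not described above were liver endothelium, stellate, cholangiocyte, lymphocyte, erythroid and neutrophil, summing to 136 to 227, 183 to 589, 27.4 to 74.4, 5.01 to 13.8, 34.7 to 89.9 and 0.343 to 2.41 CPM over the 10 libraries.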

Additional observations from a re-analysis of the deposited data

Results flagged for a closer look

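Within groups of 5 mice, a library was looked at again when its gap to the nearest of the other 4 was large against the range of the group. Of 80 groups examined, 27 were picked, and chance gives about 4, or 1 in 20. Most picks were the same library, Chow replicate 2, in genes that vary together. The picks are thus not separate trials, and their number cannot be weighed against that figure. Chow replicate 2 stood apart for the share of counts in ribosomal protein genes, at 1.87% where the rest of its group had 0.909 to 1.13%. The same held for the small-subunit genes at 0.793%, the large-subunit genes at 0.952% and the P stalk genes at 0.123%. Among named members it was high at 474 CPM for Rpsa, 212 CPM for Rps6, 223 CPM for Rps29, 621 CPM for Rps15 and 139.9 CPM for Rps15a in the small subunit. Large-subunit and stalk genes high in it were at 449 CPM for Rplp0, 581 CPM for Rplp1, 264 CPM for Rplp2, 180.1 CPM for Rpl5, 273 CPM for Rpl11, 231 CPM for Rpl3, 101 CPM for Rpl10a, 131 CPM for Rpl38, 81.9 CPM for Rpl35, 151 CPM for Rpl13 and 640.5 CPM for Rpl8. For 3 other genes of translation it was low, at 49.0 CPM for Eif3e, 244 CPM for Eif4g2 and 50.8 CPM for Eif4ebp2. Over all 74 members it was picked in 49, and no such share over all genes tested is given here. Chow replicate 2 was the highest of the 10 libraries for 32.4% of all genes tested. The 49 are therefore not read as particular to the members.

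In the TM5614 group the values set apart were 98.6 CPM for Rpl11 in replicate 3, which was low, and 108 CPM for Eif3e in replicate 4, which was high. TM5614 replicate 2, the library with skeletal muscle markers, was low at 132 CPM for Rpl3 and high at 104 CPM for Rps29.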

How the results depend on the processing

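The members' median log2 fold change stayed below 0 in the 25 alternatives, and its size rested on Chow replicate 2. These alternatives share libraries and are not separate trials. With the GC and length offset without Chow replicate 2, 37 estimates were lower and 37 higher, and the median of all genes was 0.0010. The members' median was -0.34 with all libraries and between -0.43 and -0.048 when 1 library was left out, the last without Chow replicate 2. It moved to -0.086 with limma-voom sample weights, -0.048 with the GC and length offset, -0.045 with DESeq2 without Chow replicate 2, -0.0010 with the GC and length offset without Chow replicate 2, -0.035 with the annotated transcript length offset without Chow replicate 2, and -0.10 without Chow replicate 2 and TM5614 replicate 2. With annotated transcript length and all libraries it was -0.23, so the choice of length, made after seeing the data, moved it from -0.23 to -0.048, and the cause was not tested. The GC and annotated transcript length trend accounted for 40.2% of the deviation of Chow replicate 2. The count of members called, and of members called lower, was 0 with all libraries, 1 with limma-voom weights, 1 with DESeq2 without Chow replicate 2, 1 with the GC and length offset without Chow replicate 2 and 2 without both libraries, and stayed at 0 in each fit that left out 1 library, with annotated transcript length and at a threshold of 0.01. No member was called higher in any of these fits.

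The count of other translation genes called was 4 with all libraries and ran from 1 to 13 when 1 library was left out, with 13 without Chow replicate 2, 2 without Chow replicate 1, 1 without Chow replicate 3 or 4, 2 without Chow replicate 5, 2 without TM5614 replicate 1 and 1 without TM5614 replicate 3, 4 or 5. It was 1 at a threshold of 0.01, 18 with limma-voom weights, 1 with no filter, 8 with the GC and length offset, 16 with DESeq2 without Chow replicate 2, 14 with the GC and length offset without Chow replicate 2, 11 with annotated transcript length without it and 15 without both libraries. The share of all genes called moved too, from 4.5% with all libraries to 9.24% without Chow replicate 2. That share was 12.5% with limma-voom weights and 11.4% with DESeq2 without Chow replicate 2. With the replicate number as a block (replicate block) the count of other translation genes called was 2, members called stayed at 0 and the members' median was -0.26. Same-numbered libraries correlated at 0.032, 0.32, 0.12, 0.032 and 0.25 in their deviations from the group means, and not every library correlated best with its own number, so the numbers were not taken to pair the mice. The members' share of counts differed by -0.184 percentage points with all libraries, -0.182 over tested genes alone and -0.0085 without Chow replicate 2.

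None of the named members below passed the threshold in the fits that turned their sign. Estimates of named genes changed sign with the GC and length offset to 0.00465 for Rplp2, -0.048 for Rpl5, 0.12 for Rpl11, 0.032 for Rpl3, 0.020 for Rps27a, 0.073 for Rpl10a, 0.033 for Rpl38, 0.063 for Rps15 and 0.071 for Rpl8. Under GC and length offset, without Chow replicate 2, they turned to 0.071 for Rplp2, 0.13 for Rpl11, 0.12 for Rpl3, 0.048 for Rpl22, 0.12 for Rps27l, 0.13 for Rps27a, 0.071 for Rpl10a, 0.089 for Rpl38, 0.063 for Rps15, 0.070 for Rpl8 and 0.060 for Rps15a. Estimates under GC and annotated transcript length offset, without Chow replicate 2 were 0.00657 for Rplp2, 0.075 for Rpl11, 0.10 for Rpl3, 0.070 for Rpl22, 0.061 for Rps27l, 0.087 for Rps27a, 0.030 for Rpl10a, 0.035 for Rpl38, 0.00673 for Rps15, 0.027 for Rpl8 and 0.072 for Rps15a. Under GC and annotated transcript length offset, they turned to -0.058 for Rpl5 and -0.066 for Rpl9. Estimates under limma-voom with sample quality weights were 0.021 for Rpl11, 0.10 for Rpl3, 0.062 for Rpl22, 0.026 for Rps27l, 0.079 for Rps27a and 0.035 for Rps15a. Under DESeq2, without Chow replicate 2, they turned to 0.056 for Rpl11, 0.11 for Rpl3, 0.087 for Rpl22, 0.090 for Rps27l, 0.11 for Rps27a and 0.10 for Rps15a. Estimates under leaving out Chow replicate 2 and TM5614 replicate 2 were 0.019 for Rpl11, 0.13 for Rpl3, 0.042 for Rpl22, 0.000274 for Rps27l, 0.058 for Rps27a and 0.032 for Rps15a. Under upper-quartile factors, they turned to -0.00102 for Rpl9. Estimates under at least 10 counts in every library were -0.00255 for Rpl9. When 1 library was left out, estimates ran from -0.34 to 0.052 for Rpl11, -0.17 to 0.11 for Rpl3, -0.15 to 0.083 for Rpl22, -0.19 to 0.086 for Rps27l, -0.22 to 0.11 for Rps27a, -0.067 to 0.24 for Rps4l, -0.093 to 0.21 for Rpl9 and -0.25 to 0.10 for Rps15a. Among all values of named genes, 746 kept direction and call, 66 changed sign, 54 gained a call and 34 lost it. Of the 12 other genes of translation named, Ftsj3, Tsr1 and Rps6kb2 lost their call in 10, 7 and 17 alternatives. Depth limits single genes at low counts such as Rps4l, with 67 to 248 counts per library.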

Other observations

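The proteins of the mitochondrial ribosome are encoded by a separate set of nuclear genes, and 77 of them were tested. With all libraries 0 were called by edgeR (4.5% of all genes), and 61 of 77 had lower estimates in TM5614, with a median log2 fold change of -0.15. Without Chow replicate 2 again 0 were called (9.24%), 39 of 77 estimates were lower, and the median was -0.00289. In Chow replicate 2 their median excess over the other Chow libraries was 0.66 on the log2 scale, against 1.04 for the cytosolic ribosomal protein genes. The summed level ran from 2044 to 2472 CPM in the other Chow libraries, from 2041 to 2465 CPM in TM5614, and stood at 3572 CPM in Chow replicate 2.

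RNA polymerase I and its factors transcribe the ribosomal RNA genes. Of 15 tested, 0 were called in either fit (4.5% and 9.24% of all genes). The median log2 fold change was -0.010 with and 0.051 without Chow replicate 2. Their summed level ran from 246 to 275 CPM in the other Chow libraries, from 255 to 275 CPM in TM5614, and was 341 CPM in Chow replicate 2. Of the markers of other liver cells, 9 of 10 stellate cell genes had estimates above 0 with all libraries and 10 of 10 without Chow replicate 2. Their median log2 fold changes were 0.22 and 0.29, and 0 of them passed the threshold in either fit (4.5% and 9.24% of all genes). Over all genes 5713 of 11092 and 5684 of 11162 estimates were above 0. The stellate sum was 589 CPM in TM5614 replicate 2, the library with muscle markers. It was 292 to 383 CPM in the other TM5614 libraries and 183 to 319 CPM in Chow. The part of TM5614 replicate 2 in these estimates was not tested. Kupffer cell genes had lower estimates in 11 of 12 cases in both fits (48.5% and 49.1% of all genes). Their medians were -0.38 and -0.23, and 0 passed (4.5% and 9.24% of all genes).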
